A study of Rattus norvegicus with 4 samples.

Results

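The genes described here encode carriers of the sinusoidal membrane, the face of the hepatocyte that meets the blood. They are Slc10a1, Slco1a4, Slco2b1, Slc22a8 and Slc13a3. Probes were taken where the platform's probe table named 1 of these genes, or named several genes that all belong to the Slco family. This gave 15 of the 1936 probes, which form 6 features, 5 genes and 1 probe shared by Slco1a6, Slco1a5 and Slco1a1.

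Liver RNA came from male Sprague-Dawley rats of 250 to 300 g, taken 12 h after ligation of the common bile duct or after a sham operation that only exposed it. Each group had 3 rats, and their right lateral lobe RNA was pooled before labelling. The ligated and sham pools were hybridised together on each of 4 two-colour cDNA arrays, with the ligated pool in Cy5 on arrays 1 and 3 and in Cy3 on arrays 2 and 4. The labels give no sign that the arrays came from separate pools, so the spread below is between arrays, not between animals, and p-values measure only that spread. A ratio of pooled tissue RNA cannot tell fewer cells of a type from less RNA per cell.

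Hepatocytes take bile acids from portal blood, pass them to the canaliculus and so return them to bile. Slc10a1, known as NTCP, brings in conjugated bile acids together with sodium. The organic anion transporting polypeptides of the Slco family take up bile acids, steroid conjugates and drugs without sodium. Slc22a8, known as OAT3, exchanges organic anions for dicarboxylates such as alpha-ketoglutarate, and Slc13a3, known as NaDC3, carries dicarboxylates into the cell with sodium.

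Of the 6 carrier features, 5 were lower in the ligated pool and 1, Slco1a4, did not pass (limma, Benjamini-Hochberg adjusted p under 0.05 over 1174 features). Over all features 28.6% were called, 16.6% lower and 12% higher. Slc22a8 was the lowest carrier at 2.76-fold lower, then Slc13a3 at 1.95-fold, the shared Slco1a probe at 1.70-fold, Slc10a1 at 1.69-fold (1.695) and Slco2b1 at 1.49-fold lower. At 1.5-fold or more, 4 of 6 carrier features were lower, against 5.28% of all features. No carrier feature was higher, either at that threshold or at an unadjusted limma p under 0.05 (0 of 6).

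The values are the deposited log ratios, read as ligation over sham and as base 2, with each array centred on the median of its 1936 probes. The direction is not stated in the sources used here and is likely from the order of the channels in the labels, where the ligated pool is channel 2 on every array. Natural logarithms would make the fold of Slc22a8 4.33 and that of Slc10a1 2.14. If the table instead held Cy5 over Cy3 on every array, all 6 centred features would be higher in the ligated pool, at 0.67 for Slc22a8, 0.32 for Slc13a3, 0.53 for the shared probe, 0.53 for Slc10a1, 0.54 for Slco2b1 and 0.34 for Slco1a4, where 45.4% of all features would also be called higher. Across probes, arrays of the same dye orientation correlated at 0.91 and 0.94 and arrays of opposite orientation at -0.43, -0.35, -0.29 and -0.22, over 1648 probes that are not independent. All directions below take the first reading.

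Slc22a8 was measured by probe 1265 alone. Its deposited log2 ratios were -1.79, -1.69, -2.02 and -1.89 on arrays 1 to 4. All 4 lay within 0.32 of each other although the dyes were swapped between arrays. Over all probes the array medians were -1.26, 0.43, -0.96 and 0.26. Centring on them gave -0.54, -2.12, -1.06 and -2.15, so the centred values were lower where the ligated pool was in Cy3 (mean -2.13) than where it was in Cy5 (mean -0.80). The fitted ratio was -1.47 ± 0.09 (SE, 4 arrays; adjusted p = 7.95e-08, limma), the 5th lowest of 958 genes. With the deposited values left uncentred it was -1.85 ± 0.09.

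**Figure D1:**
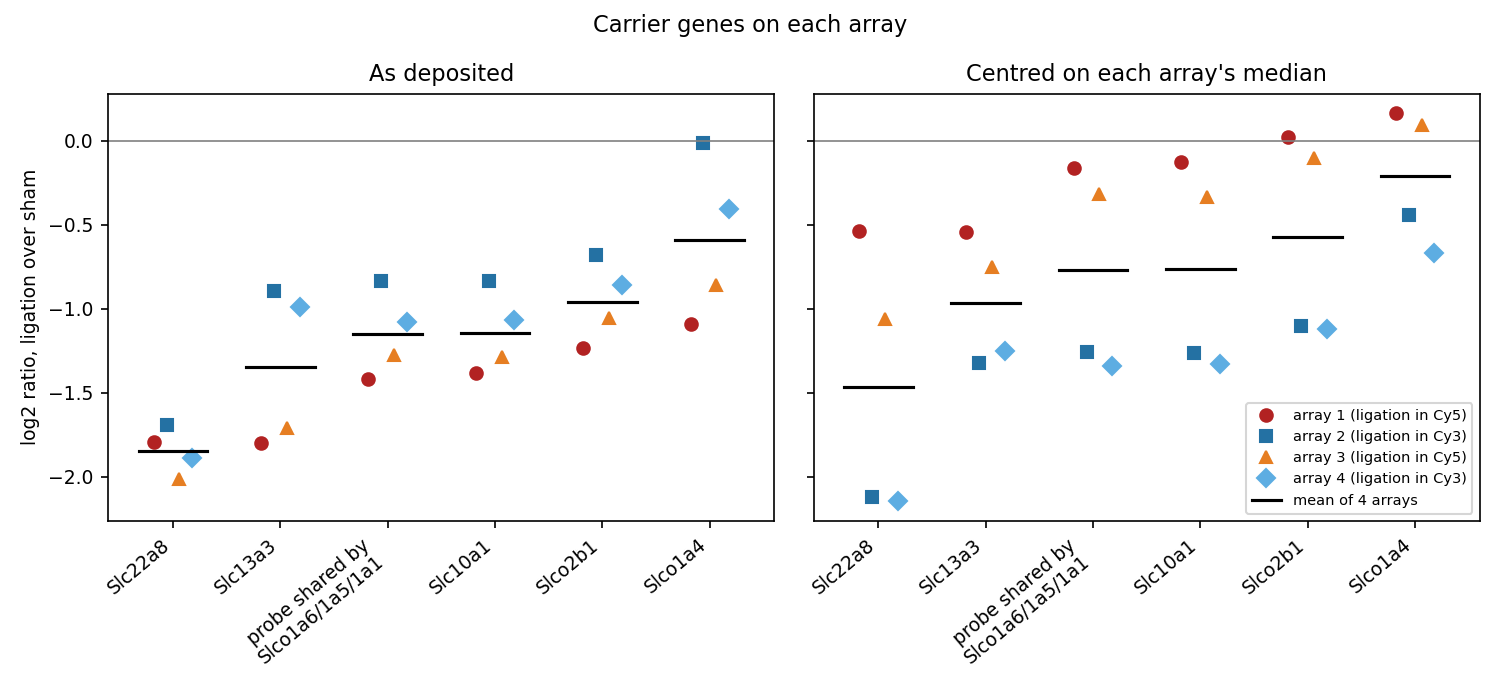
Log2 ratio of ligation over sham for the 6 carrier features on each array, as deposited (left) and centred on the array's median (right); symbols are arrays and black lines are means of 4 arrays. On the left every value is below 0 and Slc22a8 spans 0.32, and on the right arrays 2 and 4, with ligation in Cy3, lie below arrays 1 and 3 for each feature.

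The arrays split by dye in the same way for every carrier feature after centring. Each feature had a positive dye term, which is the centred mean shift where ligation was in Cy5. The dye terms ran from 0.32 for Slc13a3 to 0.67 for Slc22a8, or from the 61.5th to the 83.6th percentile of all features. Among the 452 features with a dye term at least that of Slc13a3, 30.3% were called lower and 20.8% higher. The part of signal strength in this pattern was not tested, since no intensities were used.

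As deposited, all 6 carrier features were below 0 on all 4 arrays, against 28.4% of all features. Fitted as single probes, 14 of 15 were called lower, against 16.1% of 1648 probes. The deposited values of 6 of the 15 lay within 0.5 of each other over the arrays, against 26.8% of those probes. Below 0 on all 4 arrays as deposited were 14 of 15, against 31.1% of 1648 probes, and the exception was probe 397 of Slco1a4 on array 2 (0.29). After centring, 4 of 6 features were below 0 on all 4 arrays, against 7.5% of all features. Slco2b1 was at 0.02 (0.024) on array 1, and Slco1a4 was above 0 on arrays 1 and 3.

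**Figure D2:**
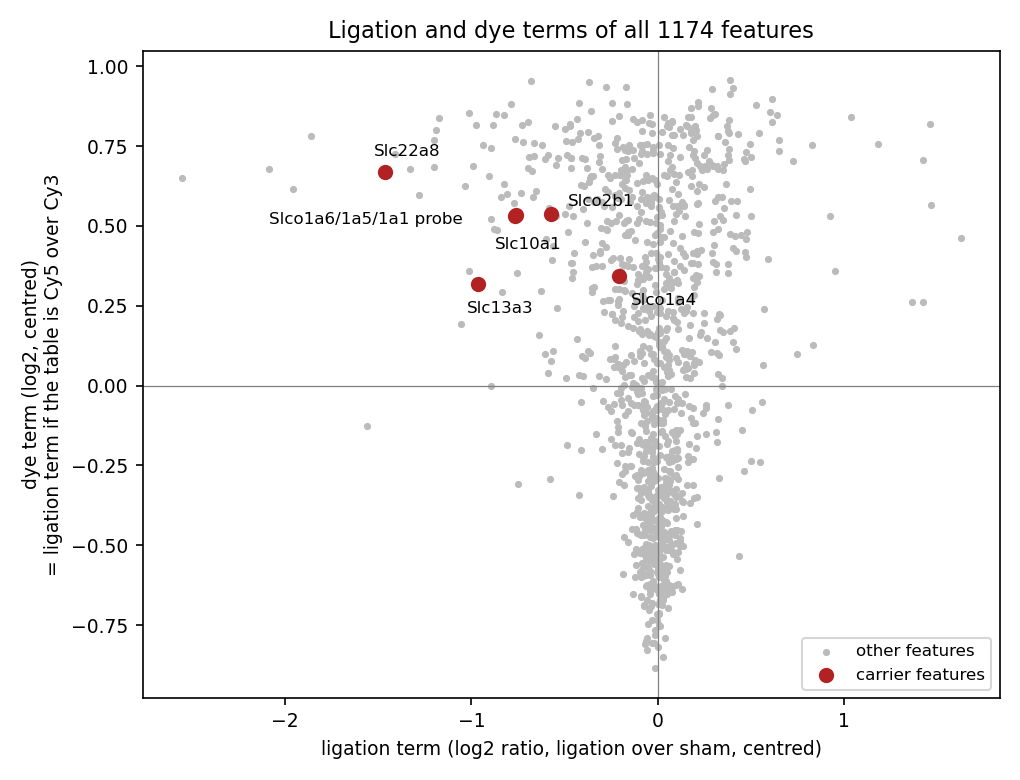
Fitted ligation term (horizontal, log2 ratio of ligation over sham) against the dye term (vertical, log2) for 1174 features, with the 6 carrier features in red; the vertical axis is also the ligation term if the table holds Cy5 over Cy3. The carriers lie to the left of 0, from -1.47 to -0.21, and above 0, from 0.32 to 0.67.

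Slc13a3, the dicarboxylate carrier whose substrates Slc22a8 gives out in exchange for organic anions, was measured by 5 probes. Averaged over them, the centred log2 ratios were -0.54, -1.32, -0.75 and -1.25 on arrays 1 to 4. The gene was below 0 on every array, and the fit gave -0.97 ± 0.07 (SE, 4 arrays; limma adjusted p = 7.96e-07). Each of the 5 probes was also called when fitted alone. Their means were -1.19 for probe 1844, -1.10 for probe 1491, -0.94 for probe 523, -0.91 for probe 1404 and -0.69 for probe 1490.

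The probes of Slc13a3 agreed in direction and differed in how they followed the dyes. Probe 1490 was nearly level over the arrays after centring, at -0.71, -0.76, -0.71 and -0.59 (-0.595). Probe 1404 gave 0.01 (0.014), -1.62, -0.43 and -1.60 on the same arrays. As deposited the 2 probes changed places, with probe 1404 within 0.20 over the 4 arrays and probe 1490 spanning 1.63. Their means differed by -0.21 ± 0.85 (SD of the difference, 4 arrays), within the spread.

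Slc10a1, the sodium-dependent bile acid carrier, was measured by 2 spots of the same cDNA clone, in print blocks 4 and 11. Its deposited log2 ratios were -1.38, -0.84, -1.29 and -1.07 on arrays 1 to 4. After centring they were -0.12, -1.26, -0.33 and -1.33. The gene was below 0 on all 4 arrays on both scales, at -0.76 ± 0.07 by the fit (SE; limma adjusted p = 6.56e-06) and -1.14 ± 0.09 without centring.

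The 2 spots of Slc10a1 gave means of -0.70 (probe 400) and -0.82 (probe 1267), a difference of 0.12 ± 0.28 (SD, 4 arrays). They differed most on array 2, by 0.51, and on array 3 by 0.04 (-0.035). Across the slide, 21 pairs of spots of 1 clone had a median absolute difference of 0.083 in their means. For 678 pairs of different clones of 1 gene it was 0.13. The spots of Slc10a1 were thus farther apart than the median pair of equal clones.

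**Figure D3:**
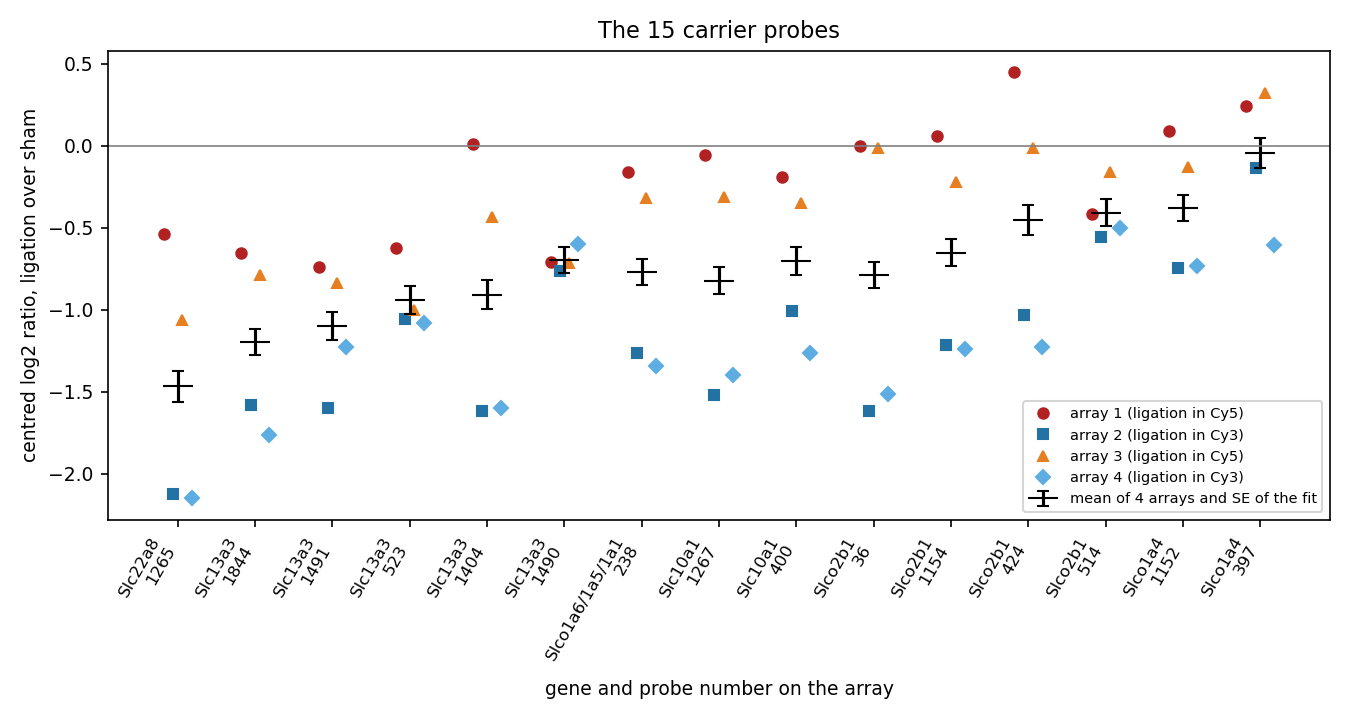
Centred log2 ratio of ligation over sham for the 15 carrier probes, by gene and probe number; coloured symbols are arrays, and black marks are means of 4 arrays with the SE of the fit. The lowest probe is 1265 of Slc22a8 (-1.47), and the mean nearest 0 is that of probe 397 of Slco1a4 (-0.043).

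Slco2b1, a carrier of sulphated steroids and other organic anions, was measured by 4 different clones. The centred log2 ratios of the gene were 0.02 (0.024), -1.10, -0.10 and -1.12 on arrays 1 to 4, close to 0 on both arrays with ligation in Cy5. As deposited they were -1.23, -0.68, -1.06 and -0.86. The fit gave -0.57 ± 0.07 (SE, 4 arrays; limma adjusted p = 5.49e-05). Fitted alone, all 4 probes were called lower, from -0.79 for probe 36 to -0.41 for probe 514.

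Slco1a4, a carrier of bile salts and digoxin, was the carrier gene that did not pass. Its centred log2 ratios were 0.17, -0.44, 0.10 (0.096) and -0.67 on arrays 1 to 4, so the sign followed the dye. The fit gave -0.21 ± 0.07 (SE, 0.075; limma adjusted p = 0.0532), with a 95% interval from -0.37 to -0.048. A fall of that range was therefore not separated from no change by the adjusted test. The fit without centring gave -0.59 (adjusted p = 0.000424), and the fit centred within print blocks gave -0.24 (adjusted p = 0.0172). Both passed.

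The 2 clones of Slco1a4 gave different calls. Probe 1152 was at -0.38 ± 0.08 (SE; limma adjusted p = 0.00245) and probe 397 at -0.043 ± 0.09 (adjusted p = 0.832). Probe 1152 was the lower of the pair on all 4 arrays, by a mean of 0.33 ± 0.23 (SD). Related Slco1a transcripts can bind 1 cDNA probe, and how far this holds for either clone was not tested.

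The probe shared by Slco1a6, Slco1a5 and Slco1a1, members of the same rat subfamily, had centred log2 ratios of -0.16, -1.26, -0.32 and -1.34 on arrays 1 to 4. It was below 0 on all 4 arrays, with a fitted ratio of -0.77 ± 0.07 (SE; limma adjusted p = 5.27e-06). Which of the 3 transcripts it reports cannot be told apart. Its nearest gene over the 4 centred values was Slc10a1, at a Euclidean distance of 0.04 (0.0396), the smallest of 958. On single arrays the shared probe and Slc10a1 differed by 0.0022 to 0.034 in size.

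The order of the carriers from lowest was Slc22a8, Slc13a3, the shared probe, Slc10a1, Slco2b1 and Slco1a4. Slc22a8 was below Slc13a3 by 0.50 ± 0.42 (SD of the difference over 4 arrays), on 3 of 4 arrays. On array 1 the difference was 0.005, so this step rested on arrays 2, 3 and 4. Slc13a3 and the shared probe differed by -0.20 ± 0.25, less than their spread. The shared probe and Slc10a1 differed by -0.0072 ± 0.021, also within it. Slc10a1 was below Slco2b1 on all 4 arrays, by 0.19 ± 0.04, and Slco2b1 was below Slco1a4 on all 4, by 0.36 ± 0.24. These are descriptions of 4 arrays, where an exact two-sided sign-flip test cannot go below p = 0.125.

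The genes most like each carrier were taken as those at the smallest Euclidean distance over the 4 centred array values. This distance takes in the dye split as well as the ligation term, so a near gene is alike in both. For Slc10a1 they were Hipk3, a protein kinase (0.13), and Cyb5b, a mitochondrial cytochrome b5 (0.26). For Slc22a8 they were Tspo (0.31) and Notch3 (0.32), and for Slc13a3 the carbonic anhydrase Car2 (0.43) and the vasopressin receptor Avpr1a (0.45). For Slco2b1 they were Creld2 (0.077) and the retinoid X receptor Rxra (0.16), whose value averages probes at -0.90 and -0.087. For Slco1a4 they were the flavin monooxygenase Fmo1 (0.16) and Tceal8 (0.17). The second nearest gene to the shared probe was again Hipk3 (0.13). Only genes with a probe of their own were ranked, so the shared probe was not among the candidates for Slc10a1, to which it lay nearer (0.0396) than Hipk3 did.

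The promoters of Slc10a1, Slc22a8 and Slc13a3, which were called lower and hold a motif marked below, give the sequence beside the ratio. Slco2b1 and the shared probe were also called lower. The promoters of their genes held none of the motifs searched and are not shown. The sequences are the 250 bases before the annotated start, 5′ to 3′ on the gene's strand, from RefSeq on build GRCr8. All 8 named carrier genes had an entry there. No build is named for the array. Capitals mark GTTAAT, the core of sites bound by the HNF1 factors of liver and kidney, in Slc10a1 (chr6:106357945-106358194, minus strand) and Slc22a8 (chr1:214927034-214927283, plus strand). In Slc13a3 (chr3:174623894-174624143, minus strand) they mark CACGTG, the E-box.
Slc10a1: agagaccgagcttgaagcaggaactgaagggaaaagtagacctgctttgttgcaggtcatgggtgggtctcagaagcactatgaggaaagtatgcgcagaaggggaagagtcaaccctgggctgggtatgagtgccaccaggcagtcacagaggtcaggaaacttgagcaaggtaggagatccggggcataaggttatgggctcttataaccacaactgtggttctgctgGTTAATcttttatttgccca
Slc22a8: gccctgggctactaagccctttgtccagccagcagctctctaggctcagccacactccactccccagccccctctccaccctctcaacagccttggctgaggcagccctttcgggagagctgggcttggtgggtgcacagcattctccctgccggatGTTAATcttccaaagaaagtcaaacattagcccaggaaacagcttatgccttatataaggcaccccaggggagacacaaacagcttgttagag
Slc13a3: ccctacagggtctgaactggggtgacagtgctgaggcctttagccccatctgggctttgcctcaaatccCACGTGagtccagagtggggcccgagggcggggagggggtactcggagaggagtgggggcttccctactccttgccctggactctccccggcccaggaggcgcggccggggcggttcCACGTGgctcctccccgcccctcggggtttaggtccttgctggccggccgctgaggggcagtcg

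GTTAAT was searched on both strands. In Slc10a1 it began 20 bases before the start and in Slc22a8 93 bases before it. It was not found in the other 6 carrier promoters, and 6.45% of 33469 rat promoter windows of the same length held it. AGGTCA, the core bound by many nuclear receptors, was found on the gene's strand in Slc10a1 alone of the 8, at 197 and 99 bases before the start. It was in 14.1% of all windows, and 1.27% held it at least 2 times. CACGTG, the same on both strands, began 181 and 64 bases before the start of Slc13a3 and 236 bases before that of Slco1a4. It was in 5.59% of all windows. The motifs were chosen with the sequences in view, and a match is a description of letters only.

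Other genes of bile acid handling were taken from lists. The members of each list that the array measured were few, and over all features the median log2 ratio was -0.013. Of 4 other uptake carriers measured, none was called, nor was any at an unadjusted limma p under 0.05 (0 of 4). They were the Slco family member Slco1c1 at -0.027 with 5 probes, the organic cation carrier Slc22a3 at 0.0095, the carnitine carrier Slc22a5 at -0.08 (-0.082) and the organic anion carrier Slc22a6 at 0.09 (0.094), with SE between 0.07 and 0.08. Without centring all 4 were called lower, from -0.46 to -0.29, as were 82.2% of all features. Read as Cy5 over Cy3, all 4 would be called lower, with a median of -0.50. After centring all 4 had negative dye terms, from -0.67 to -0.24, where the carrier features described above had positive ones. As deposited the dye terms of both sets were negative. They ran from -1.40 to -0.96 for these 4 genes and from -0.41 to -0.057 for the carrier features. No intensity was used, so whether these 4 genes had RNA in these livers was not tested. Whether they differed from the carriers called lower was not tested either.

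Slco1c1 and Slco2b1 are of 1 family and, after centring, followed the dyes in opposite ways. Slco1c1 had centred log2 ratios of -0.50, 0.52, -0.62 and 0.49 on arrays 1 to 4, and a dye term of -0.54. Slco2b1 had a dye term of 0.54. Slc22a6 and Slc22a8, both organic anion exchangers, also had centred dye terms of opposite sign, -0.47 and 0.67. As deposited these dye terms were all negative, at -1.26 for Slco1c1, -0.19 for Slco2b1, -1.19 for Slc22a6 and -0.057 for Slc22a8. The opposite signs thus depend on the centring. The part of signal strength in them was not tested either, so they are not given as a trait of either family.

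Of 2 export pumps measured, 1 was called each way. Abcc2 (MRP2), which exports bilirubin and glutathione conjugates into bile, was at 0.30 ± 0.08 (SE; limma adjusted p = 0.0168), and Abcc4 (MRP4), a basolateral exporter, was at -0.30 ± 0.08 (adjusted p = 0.0106). Abcc2 was at -0.086 without centring. Leaving out array 1 gave 0.19 for Abcc2 (limma adjusted p = 0.0976), and leaving out array 2 gave 0.27 (adjusted p = 0.0753), neither of which passed. Nor did it pass with print-block centring (0.22, adjusted p = 0.115) or with centring on strong dye terms (0.19, adjusted p = 0.169). Abcc4 failed to pass when array 2 was omitted (-0.25, adjusted p = 0.0975), as when array 3 was (-0.23, adjusted p = 0.0692). Both pumps would be called higher if the table held Cy5 over Cy3, at 0.69 for Abcc2 and 0.45 for Abcc4.

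Of 3 carriers of di- and monocarboxylates or sulphate measured, 1 was lower and 2 did not pass. Slc26a1, a sulphate and oxalate exchanger of the sinusoidal membrane, was at -0.49 ± 0.08 (SE; limma adjusted p = 0.000357). The monocarboxylate carriers Slc16a7 and Slc16a1 were at -0.17 and 0.04 (0.043). The list's median was -0.17, beside -0.97 for Slc13a3. With the direction turned, 2 of the 3 would be called higher and none lower, Slc26a1 at 0.72 among them.

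All 3 measured enzymes of bile acid synthesis were lower, with a median of -0.90. Cyp7a1, the rate-limiting enzyme, had centred log2 ratios of -0.67, -0.72, -1.13 and -1.08 on arrays 1 to 4, and its dye term was -0.00036. After centring it was thus level over the dyes, unlike Slc10a1. As deposited it was not level, with a dye term of -0.73 beside -0.19 for Slc10a1. Cyp27a1, with a dye term of 0.72, was at -0.66, and Cyp8b1 at -1.56 through 2 probes at -3.04 and -0.089. Fitted alone, the Cyp8b1 probe at -0.089 did not pass (limma adjusted p = 0.537), so the 2 probes disagreed. The calls of the 3 enzymes depend on the direction of the ratio. Read as Cy5 over Cy3, no enzyme would be called lower, with Cyp7a1 at -0.00036 (limma adjusted p = 0.997) and Cyp8b1 at -0.13 (adjusted p = 0.192) not passing and Cyp27a1 higher at 0.72.

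Of 13 regulators measured, 4 were lower and 2 were higher, while 7 did not pass. Their median was -0.027. With the direction turned, 9 would be called higher and 2 lower, with a median of 0.34. The lower ones were the bile acid receptor Nr1h4 (-0.64 ± 0.09), its partner Rxra (-0.50 ± 0.07), the growth hormone signal carrier Stat5b (-0.35 ± 0.08, SE 0.085) and the cytokine Tnf (-0.57 ± 0.08). The higher ones were Nr0b2, the repressor induced by Nr1h4 (0.65 ± 0.09), and the oxysterol receptor Nr1h2 (0.65 ± 0.07). These errors are SE over 4 arrays. The probes of Rxra gave -0.90 and -0.087. Stat5b did not pass when array 3 was omitted (-0.27, limma adjusted p = 0.0736), and the same held for array 4 (-0.27, adjusted p = 0.0743).

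**Figure D4:**
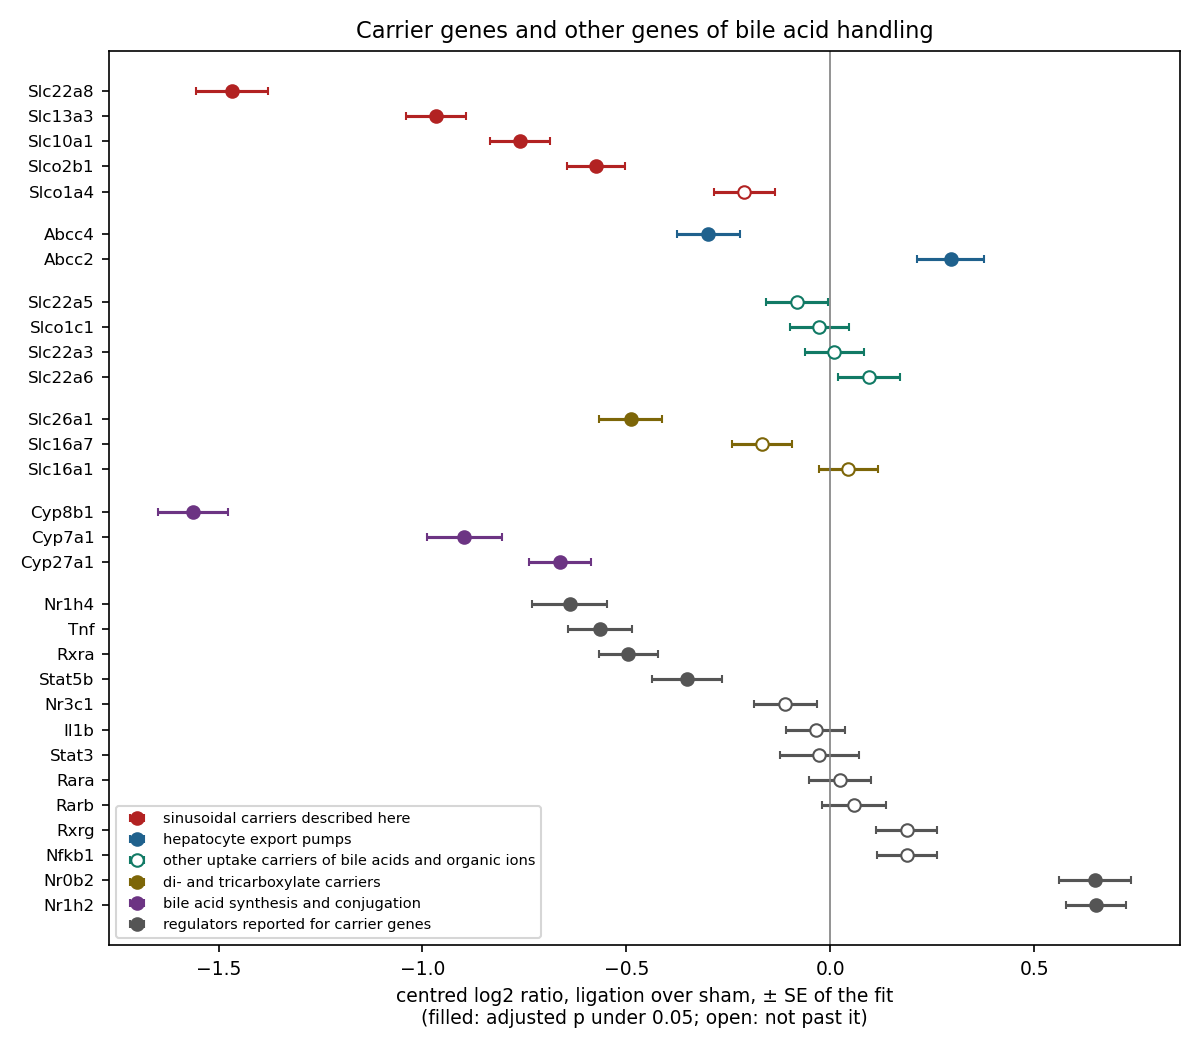
Centred log2 ratio of ligation over sham with the SE of the fit for the 5 carrier genes and for the measured genes of 5 lists; filled symbols passed adjusted p under 0.05. The carriers lie from -1.47 to -0.21, and the 4 other uptake carriers lie from -0.08 (-0.082) to 0.09 (0.094).

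Among the 41 other solute carriers on the array, 6 were called lower and 3 higher, which leaves 32 without a call. Their median was -0.0056, beside -0.76 for the 5 carrier genes. The list took every other solute carrier symbol, and which of the 41 had RNA in these livers was not tested. The lower ones were the nucleoside carriers Slc28a2 (-0.59) and Slc29a2 (-0.32), the folate carrier Slc46a1 (-0.49), the glutamate carrier Slc1a2 (-0.49), the copper carrier Slc31a1 (-0.45) and the amino acid carrier subunit Slc7a7 (-0.25). The higher ones were the bicarbonate carrier Slc4a4 (0.31), the vitamin carrier Slc5a6 (0.28) and Slc15a4 (0.26). None of these 3 was higher without centring, where they lay between -0.12 and -0.074. Calls were lost without array 1, 3 or 4 for Slc7a7 (-0.24, -0.26 and -0.19), without array 2 or 3 for Slc29a2 (-0.19 and -0.21) and Slc5a6 (0.20 and 0.21), without array 1, 2 or 3 for Slc15a4 (0.29, 0.14 and 0.23) and without array 2 for Slc4a4 (0.28). Read as Cy5 over Cy3, 11 of the 41 would be called higher and 19 lower, with a median of -0.17, beside 0.53 for the 5 carrier genes.

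Markers of liver cell types give ratios here and no level, so they cannot show which cells the samples held. Of 5 measured hepatocyte genes, 4 were higher (Ttr 0.26, Apoa1 0.38, Tf 0.37 and Serpina1 0.20), and Apob was at 0.098. Without centring these 5 lay between -0.28 and -0.0039, beside -1.14 for Slc10a1. With the direction turned, Apoa1 (0.80), Ttr (0.69), Tf (0.63) and Apob (0.54) would be called higher and Serpina1 lower (-0.19), beside 0.53 for Slc10a1. Of 3 cholangiocyte genes measured, none was called (limma; 0 of 3 also at an unadjusted p under 0.05), with Spp1 at 0.14. Of 2 Kupffer cell and leukocyte genes Cd53 was lower (-0.27), of 3 stellate cell and fibroblast genes Col1a1 was lower (-0.23), and of 4 endothelial genes Kdr was lower (-0.33). Turned, Cd53 would be called higher (0.27), Col1a1 (-0.057) and Kdr (-0.15) would not pass, and 1 cholangiocyte gene would be called higher and 2 lower. The platelet gene Pf4 was at -0.022. The part of cell make-up in the carrier ratios was not tested.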

How the data were processed

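The authors deposited 1 log ratio per probe and array, read here as log2, for 1936 probes on 4 two-colour arrays that the labels describe as holding 1800 rat genes. No source used here gives the scanning, background correction, normalization or base of the logarithm, so base 2 is a reading. The deposited columns have unequal medians. Genes were named from the platform's annotation, and the 8 carrier symbols matched RefSeq (GRCr8) by gene number. The members and lists were chosen with earlier results of these data known.

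Each array was centred on its median. The 288 spots at 18 positions unnamed in all 16 print blocks were left out as presumed controls. Probes of 1 gene were averaged, giving 958 genes and 216 other probes. A ligation term and a dye term (1 with ligation in Cy5, -1 in Cy3) were fitted to all 1174 features with limma 3.58.1 (R 4.3.3) and eBayes (prior SD 0.155, 10.4 prior and 2 residual degrees of freedom), with Benjamini-Hochberg adjustment and calls under 0.05. No set test was run. In 20 simulated runs over 1174 features the fit recovered 97.3% of genes changed 1.3-fold, and 3.93% of calls were false. The noise was independent, so this checks the fit and gives no power for these arrays. No intensity was used, and the number of arrays limits precision.

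The named genes were the carriers, the called genes of each list, all genes of lists with 8 or fewer measured members, and the 2 genes nearest each carrier. Alternatives were other centrings, quantile normalization, the model without the dye term, the reading as Cy5 over Cy3, single probes, control positions kept, a robust prior, natural logarithms, a threshold of 0.01 and leaving out each array. The reading as Cy5 over Cy3 without centring was added after seeing the data.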

Additional observations from a re-analysis of the deposited data

How the results depend on the processing

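The 5 calls among the carriers were the same with quantile normalization, with centring within print blocks or on the upper quartile of the absolute dye term, with single probes, with control positions kept, with a robust prior, with natural logarithms, at 0.01 and without any 1 array. Without 1 array, Slc22a8 lay between -1.60 and -1.34, Slc13a3 between -1.02 and -0.91, the shared probe between -0.81 and -0.73, Slc10a1 between -0.81 and -0.71, Slco2b1 between -0.61 and -0.54, and Slco1a4 between -0.27 and -0.15, not called. The number of pathway genes called higher then lay between 3 and 6. Each array's ratio compares the ligated and sham pools on that array, so the fit was paired by array. The labels form 1 group of arrays and gave no further pairing.

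Without a dye term limma called 0 of 1174 features in either direction (52 lower and 22 higher at an unadjusted p under 0.05), hence 0 carriers lower (4 at an unadjusted p) and 0 pathway genes lower or higher (5 and 0 at an unadjusted p). The carrier ratios were the same, at -1.47, -0.97, -0.77, -0.76 and -0.57, with adjusted p of 0.253, 0.253, 0.635, 0.635 and 0.904. The model without that term leaves the dye difference in the error.

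All features moved by -0.38 without centring, where 965 were called lower and 20 higher in place of 195 and 141, and 54 pathway genes lower and 2 higher in place of 15 and 6. Slco1a4 passed there (-0.59) and with print-block centring (-0.24). Changed in sign without centring were Abcc2 (-0.086), Slc22a3 (-0.37), Slc22a6 (-0.29), Slc16a1 (-0.34), Slc15a4 (-0.12), Slc5a6 (-0.098) and Slc4a4 (-0.074). With centring on the upper quartile of the absolute dye term, 216 features were called lower and 56 higher, 2 pathway genes were higher, and Slc22a3 (-0.095), Slc22a6 (-0.010) and Slc16a1 (-0.061) changed sign. With print-block centring Slco1c1 was at 0.00062 and Slc22a3 at -0.019, and with single probes Slco1c1 was at 0.014. Without 1 array Slco1c1 lay between -0.058 and 0.0033 and Slc22a3 between -0.030 and 0.050. With control positions kept 239 features were higher. At 0.01, 3 pathway genes were higher.

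Read as Cy5 over Cy3, limma called 392 features lower and 533 higher, 0 carriers lower and 6 higher, and 25 pathway genes each way. The carriers were then at 0.67 (Slc22a8), 0.32 (Slc13a3), 0.53 (the shared probe), 0.53 (Slc10a1), 0.54 (Slco2b1) and 0.34 (Slco1a4). Others that changed sign were Abcc4 (0.45), Slc22a3 (-0.67), Slc22a6 (-0.47), Slc26a1 (0.72), Slc16a7 (0.075), Cyp27a1 (0.72), Nr1h4 (0.16), Rxra (0.54), Stat5b (0.29), Tnf (0.44), Slc31a1 (0.41), Slc15a4 (-0.069), Slc29a2 (0.78), Slc46a1 (0.025), Slc28a2 (0.56), Hipk3 (0.57), Cyb5b (0.60), Fmo1 (0.40), Tceal8 (0.40), Creld2 (0.53), Tspo (0.72), Notch3 (0.68), Car2 (0.35) and Avpr1a (0.49). Cyp7a1 (-0.00036), Cyp8b1 (-0.13), Slc7a7 (-0.17), Slc5a6 (0.11) and Slc4a4 (0.14) kept their sign and did not pass.

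With that reading and no centring, 853 features were called lower and 5 higher, and 50 pathway genes lower and 0 higher (0 higher also at an unadjusted p). Of the carriers 2 were called lower, Slc13a3 and Slco1a4 (-0.38), while Slc22a8 (-0.057), the shared probe (-0.19), Slc10a1 (-0.19) and Slco2b1 (-0.19) did not pass. Abcc2 (-0.037), Slc22a3 (-1.40), Slc22a6 (-1.19), Slc16a1 (-0.38), Slc15a4 (-0.79), Slc29a2 (0.056), Slc5a6 (-0.62) and Slc4a4 (-0.59) changed sign. Which reading holds was not tested beyond the values given here.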
